A study of Homo sapiens with 6 samples.

Results

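N-glycan synthesis and transfer were read through 34 genes in a pooled CRISPR interference (CRISPRi) screen for amounts of an opioid receptor that remain after agonist. The genes were taken by name from a list of enzymes and complex subunits. The rule used no measured value, but the list was chosen with earlier results of these data known. All 34 were found among 18905 genes with a usable measurement. Cells were HEK293-FLP, a human embryonic kidney line, and carried a delta opioid receptor with the recycling sequence of the mu receptor at its tail, fused to the peroxidase APEX2 [DOR-MRS(WT)-APEX2]. They also expressed dCas9-KRAB, which is brought to a promoter by a single guide RNA (sgRNA) and represses it, and the dCas9 line was a single clone. Every population had received sgRNA virus (multiplicity near 0.2) and puromycin at 0.75 μg/ml, and was treated with 10 μM of the opioid peptide DADLE, for 90 min after 8 days of knockdown according to the sample labels. APEX2 then turned Amplex UltraRed (AUR) into a fluorescent product, and cells were sorted into the top and the bottom quartile of fluorescence. The library had been split into the sublibraries H17, H23 and H456, with 1 top quartile library and 1 bottom quartile library for each. H23 held 20 of the 34 genes, H456 held 11 and H17 held 3. No untreated library was among the 6, and counts of sgRNAs hold no transcripts with which the cell type or the knockdown of a gene could be checked.

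N-linked glycans are built on the lipid dolichol in the membrane of the endoplasmic reticulum (ER). Sugars are added first on the cytosolic face and, after the lipid has flipped, on the lumenal face, and oligosaccharyltransferase (OST) moves the finished glycan onto asparagines of entering proteins. Glucosidases then trim the glycan, which ties the protein to the calnexin cycle of folding, and Golgi enzymes remodel it. Opioid receptors carry such glycans on their extracellular amino terminus, and receptors that fold poorly are held back in the ER.

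CRISPRi acts at the promoter, and the stretch just before the start site is shown for 4 genes to which the values below return. STT3A and DDOST held an sgRNA outside the range of nontargeting sgRNAs, all sgRNAs of ALG8 were positive, and ALG11 was measured in 2 sublibraries. The 150 bases before the start are given in the direction of the gene, from RefSeq with GRCh38.p14 coordinates, and capitals mark GG and CC, the fixed letters of the NGG motif that Cas9 needs beside its target on either strand.
STT3A (chr11:125592702-125592851, + strand): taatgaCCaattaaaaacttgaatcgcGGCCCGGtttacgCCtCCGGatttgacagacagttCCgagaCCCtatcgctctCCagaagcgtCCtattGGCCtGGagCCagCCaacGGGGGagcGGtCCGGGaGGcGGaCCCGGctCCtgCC
DDOST (chr1:20661370-20661519, - strand): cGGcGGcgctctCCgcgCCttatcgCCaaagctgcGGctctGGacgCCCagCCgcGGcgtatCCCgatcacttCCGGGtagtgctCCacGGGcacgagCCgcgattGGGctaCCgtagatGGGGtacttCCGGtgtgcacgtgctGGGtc
ALG8 (chr11:78139627-78139776, - strand): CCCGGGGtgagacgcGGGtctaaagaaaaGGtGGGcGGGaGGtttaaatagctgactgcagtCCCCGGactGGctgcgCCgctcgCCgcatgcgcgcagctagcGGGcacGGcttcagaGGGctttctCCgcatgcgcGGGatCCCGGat
ALG11 (chr13:52012248-52012397, + strand): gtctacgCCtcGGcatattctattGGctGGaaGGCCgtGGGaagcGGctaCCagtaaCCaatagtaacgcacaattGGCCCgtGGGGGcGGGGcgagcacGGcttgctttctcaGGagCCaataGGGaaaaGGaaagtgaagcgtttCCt

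These windows held 33 (STT3A), 30 (DDOST), 31 (ALG8) and 28 (ALG11) NGG motifs, counted on both strands with overlaps. The median over 35116 promoter windows of the same length was 30, and 99.99% of them held at least 1. The number of possible target sites near these 4 starts was thus close to the middle of all genes. A promoter window was found for 29 of the 34 genes.

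An sgRNA's phenotype is the log2 ratio of 2 shares of reads, top quartile over bottom quartile, set so that the nontargeting control (NTC) sgRNAs of its sublibrary have a median of 0. Positive values mean that cells with the sgRNA were more frequent among bright cells, and negative values that they were more frequent among dim cells. The phenotype of a gene is the mean over its sgRNAs, given with the SD over sgRNAs. Totals were 23426498 to 47989659 reads in the top quartile libraries and 28996259 to 50486627 in the bottom quartile libraries. At this depth, counting error alone gave a median SD of 0.0826 per sgRNA against these genes in H17, 0.0553 in H23 and 0.0586 in H456.

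None of the 34 genes passed the test against the NTC sgRNAs. Their phenotypes lay between −0.13 (ALG14) and 0.17 (KRTCAP2), so the share in the top quartile was 0.911 to 1.13 times that in the bottom quartile. No gene of the 34 passed an adjusted p of 0.05 in the exact two-sided Mann-Whitney test, which 0.0952% of all genes passed with a positive and 0.381% with a negative phenotype. At an unadjusted exact p under 0.05 the count was also 0 of 34, beside 8.1% of all genes in either direction, 4.06% positive and 4.04% negative. The lowest p was 0.0691, for ALG8, with an adjusted p of 0.657 in the exact test. No gene reached a phenotype of 0.3 (2.22% of all genes) or of −0.3 (4.43%), which 6.65% of all genes did in either direction.

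The spread of these genes was small as well. Over the 34 genes the median phenotype was 0.03 with an SD over genes of 0.0904, beside a median of 0.00155 and an SD of 0.175 over all genes. The mix of sublibraries differed, as H17, with the widest spread, held only 3 of the 34. Within H17, H23 and H456 the SD over these genes was 0.0729, 0.0993 and 0.0734, beside 0.206, 0.161 and 0.157 over all genes. The phenotype was positive for 21 and negative for 13, where 50.5% of all genes were positive and 49.5% negative. Exact 95% intervals for a shift common to the sgRNAs of a gene had a median width of 0.440 over the 34 genes. Their lowest bound was −0.376 (GANAB) and their highest 0.458 (DDOST). No such range is given here for all genes, so these bounds describe the precision only. With 1 library per quartile, test and interval compare the 2 libraries of one sort over sgRNAs and hold no spread between sorts.

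**Figure D1:**
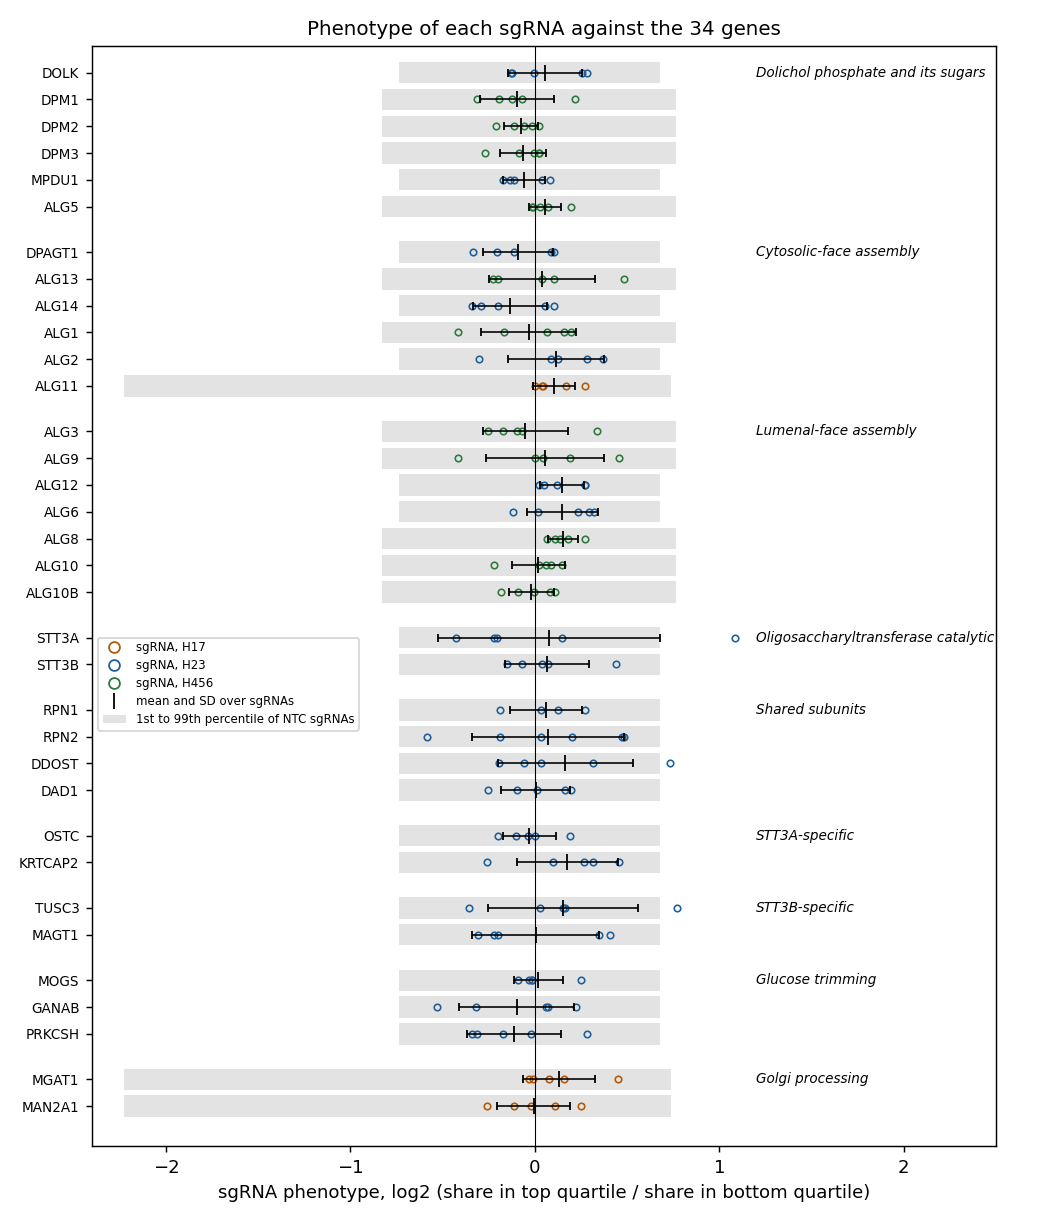
Phenotype (x axis, log2 of top over bottom quartile share) of every sgRNA against the 34 genes (y axis, ordered by step), with the mean and SD over sgRNAs in black. Grey bars span percentiles 1 to 99 of NTC sgRNAs, and 3 sgRNAs, against STT3A, TUSC3 and DDOST, lie outside them.

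Dolichol phosphate and its sugar donors come first in the pathway. DOLK, the kinase that makes dolichol phosphate, had a phenotype of 0.06 ± 0.20 (SD, n = 5 sgRNAs, as for every gene below unless another number is given). Dolichol phosphate mannose synthase joins mannose to that lipid. Its catalytic subunit DPM1 was at −0.10 ± 0.20, and the membrane subunits DPM2 and DPM3, which anchor and stabilise it, were at −0.07 ± 0.09 and −0.06 ± 0.12. MPDU1, needed for the use of these donors, was at −0.06 ± 0.11, and ALG5, which makes dolichol phosphate glucose, at 0.05 ± 0.09. Of these 6 genes, 4 were thus below 0, and exact p-values for the 6 ran from 0.267 to 0.672. One DPM1 sgRNA is also listed under MOCS3, a neighbouring gene of molybdenum cofactor synthesis, and the other 4 averaged −0.09.

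On the cytosolic face, DPAGT1 starts the chain by adding the first N-acetylglucosamine phosphate, the step that tunicamycin blocks. Its phenotype was −0.09 ± 0.19. The top quartile held 805, 1414, 2324, 1148 and 1914 reads of its 5 sgRNAs and the bottom quartile, in the same order, 857, 1372, 2116, 910 and 1501. Those counts correspond to phenotypes of −0.34, −0.20, −0.11, 0.09 and 0.10, on both sides of 0. ALG13 and ALG14 together add the second N-acetylglucosamine and had phenotypes of 0.04 ± 0.29 and −0.13 ± 0.20. The ALG14 value was the lowest of the 34, and 2 of its 5 sgRNAs were positive (exact p = 0.215). The mannosyltransferases of this face, ALG1, ALG2 and ALG11, were at −0.03 ± 0.26, 0.11 ± 0.26 and 0.10 ± 0.11. The median over these 6 genes was 0.00333, with 3 above and 3 below 0.

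ALG11 had 5 positive sgRNAs, from 0.00107 to 0.27, as had ALG8 and ALG12 on the lumenal face. Genes with at least 4 sgRNAs that were all positive made up 5.27% of all genes and 3 of these 34, and genes with all negative sgRNAs 4.3% of all genes and 0 of these 34. The 5 ALG11 sgRNAs are listed in the library under UTP14C too, a gene of ribosomal RNA processing whose RefSeq start lies 12293 bases downstream of that of ALG11 on chromosome 13, so the measurement cannot be given to one of the 2 genes. The same sgRNAs were also present in H456. There they had 839, 1098, 1268, 516 and 1325 reads in the top quartile and 1430, 1679, 2191, 829 and 2202 in the bottom quartile, and their mean phenotype was 0.05 ± 0.07 (exact p = 0.563, 95% interval −0.11 to 0.21). In H456, 3 were positive and 2 negative, so the common sign of H17 was not seen in the other pair of libraries.

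**Figure D2:**
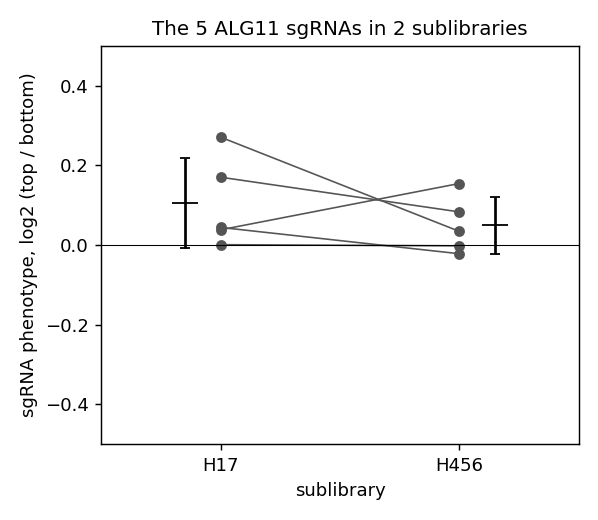
Phenotypes (y axis, log2 of top over bottom quartile share) of the 5 ALG11 sgRNAs in the libraries of H17 and of H456 (x axis), with 1 line per sgRNA and the mean and SD beside the points. Means were 0.10 in H17 and 0.05 in H456.

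The lumenal face held the gene with the lowest p. Here ALG3, ALG9 and ALG12 add mannoses and ALG6, ALG8 and ALG10 add the 3 glucoses by which OST recognises the finished glycan. For ALG8, the second glucosyltransferase, the top quartile held 483, 1021, 878, 1799 and 1268 reads and the bottom quartile 787, 1612, 1359, 2703 and 1788. The bottom quartile had more reads of each sgRNA because the H456 library of that quartile was the larger one, and relative to the NTC sgRNAs the phenotypes were 0.06, 0.11, 0.14, 0.18 and 0.27. Their mean was 0.15 ± 0.08, the smallest SD among the 34 genes, and its 95% interval of −0.01 to 0.31 reached 0.

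ALG12 was at 0.15 ± 0.12 (exact p = 0.124) and ALG6, the first glucosyltransferase, at 0.15 ± 0.19 (exact p = 0.165). ALG3 and ALG9 were at −0.05 ± 0.23 and 0.05 ± 0.32. ALG10 and its near copy ALG10B, which add the last glucose, were at 0.02 ± 0.14 and −0.02 ± 0.12. Of these 7 genes, 5 were above and 2 below 0, with a median of 0.05. The top quartile shares of ALG6, ALG8 and ALG12 were each 1.11 times the bottom quartile shares, and none passed the test.

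OST exists in human cells as 2 complexes, one with the catalytic subunit STT3A, which acts on proteins as they enter the ER, and one with STT3B, which acts on sites that were skipped. For STT3A, the top quartile held 798, 1051, 1554, 593 and 584 reads of the 5 sgRNAs and the bottom quartile 903, 1031, 1508, 452 and 232. Phenotypes in the same order were −0.43, −0.22, −0.20, 0.14 and 1.09. One sgRNA thus lay above the 99th percentile of the NTC sgRNAs of H23 (0.68) while 3 were below 0, and the mean of 0.08 carried the largest SD of the 34 genes, 0.60 (exact p = 0.611). Without that sgRNA the mean was −0.18.

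STT3B gave a narrower set. Its sgRNAs had 1927, 1515, 1716, 2356 and 1671 reads in the top quartile and 1802, 1340, 1406, 1888 and 1039 in the bottom quartile. The phenotypes of −0.15, −0.07, 0.04, 0.07 and 0.44 all lay inside the NTC range, with a mean of 0.07 ± 0.23 (exact p = 0.649). STT3A minus STT3B was 0.01, with an exact 95% interval of −0.64 to 1.04 and an exact Mann-Whitney p of 0.548 (n = 5 sgRNAs each). This interval is wide, so a difference between both catalytic subunits of up to those sizes was not resolved.

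Of the subunits shared by both complexes, the 34 genes held RPN1 (0.06 ± 0.20, n = 4), RPN2 (0.07 ± 0.41, n = 6), DDOST (0.17 ± 0.37) and DAD1 (0.01 ± 0.19). The small shared subunits TMEM258 and OST4, which are not among the 34, were at 0.08 ± 0.15 in H23 and −0.08 ± 0.19 in H17 (n = 5 each, exact p = 0.412 and 0.522). One further RPN1 sgRNA had 48 reads in the top and 27 in the bottom quartile, under the minimum of 50 reads in either library. With a minimum of 1 read in one library, RPN1 averaged 0.165 (exact p = 0.226). RPN2 spanned −0.58 to 0.48, and 2 of its sgRNAs are also listed under MROH8, without which it averaged 0.10. For DDOST, a subunit needed for stable complexes, the top quartile had 1665, 2650, 872, 684 and 67 reads and the bottom quartile 1603, 2325, 718, 464 and 34. Phenotypes were −0.19, −0.06, 0.03, 0.31 and 0.73, and the highest rested on the fewest reads of any analysed sgRNA against the 34 genes. That sgRNA met the minimum of 50 reads only through the top quartile library, the one in which it was high. With 50 reads required in both libraries it drops out, and the DDOST mean was 0.0242. With at least 100 reads required in one library it drops out too, and the DDOST mean was 0.0230.

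Subunits of one complex only were OSTC (−0.03 ± 0.14) and KRTCAP2 (0.17 ± 0.27), which belong to the STT3A complex and link it to the translocon. KRTCAP2 had the highest phenotype of the 34 genes, with 4 positive sgRNAs and 1 negative (exact p = 0.121). TUSC3 and MAGT1, alternative oxidoreductase subunits of the STT3B complex, were at 0.15 ± 0.40 and 0.00472 ± 0.344. One TUSC3 sgRNA reached 0.77 on 421 reads in the top and 208 in the bottom quartile, and the other 4 lay between −0.36 and 0.16.

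Of the 10 OST subunits among the 34 genes, all in H23, 9 had a positive mean, and 2868 of the 6016 genes of H23 had one. Of the 2 further shared subunits, TMEM258 was positive and OST4, measured in H17, was negative. The median over the 10 subunits was 0.07, beside −0.00697 over all genes of H23. Exact p-values of the 10 subunits ran from 0.121 (KRTCAP2) to 0.903 (DAD1). When the strongest sgRNA of every gene was left out, 5 of the 10 subunits were positive. No p is given for this count, since the subunits were taken as a list and share 1 pair of libraries.

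Paralogs were compared in 3 pairs, each within a sublibrary. TUSC3 minus MAGT1 was 0.15 (exact 95% interval −0.38 to 0.97, exact p = 0.841) and ALG10 minus ALG10B was 0.04 (−0.22 to 0.25, exact p = 0.690, n = 5 sgRNAs each). After adjustment over the 3 pairs, all exact p-values were 0.841, where 0.00794 is the smallest that 5 against 5 sgRNAs allow before adjustment. At a multiplicity near 0.2 most cells receive a single sgRNA, so the members of a pair were mostly not repressed together.

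Trimming of the glycan begins with glucosidase I (MOGS), at 0.02 ± 0.13, and goes on with glucosidase II. Its catalytic subunit GANAB was at −0.10 ± 0.31 and its ER retention subunit PRKCSH at −0.11 ± 0.26. For GANAB the top quartile held 769, 880, 989, 1336 and 831 reads and the bottom quartile 935, 926, 799, 1071 and 600, which gave −0.53, −0.32, 0.06, 0.07 and 0.22. PRKCSH had 4 negative sgRNAs and 1 positive, between −0.34 and 0.28. Both subunits of the enzyme were thus below 0, with exact p-values of 0.619 and 0.267.

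In the Golgi, MGAT1 opens the way to hybrid and complex glycans and MAN2A1 trims the mannoses that follow. MGAT1 alone among the 34 had sgRNAs at 2 start sites. They gave 0.13 ± 0.19 (exact p = 0.279) and −0.13 ± 0.31 (exact p = 0.477, n = 5 each), opposite in sign, and the first, with the lower p, was used for the gene. MAN2A1 was at −0.00737 ± 0.198, with 2 positive sgRNAs and 3 negative.

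Single sgRNAs against the 34 genes had a lower SD than the controls in each sublibrary, in H23 only slightly. The SD over all sgRNAs against the 34 genes was 0.224 in H17, 0.274 in H23 and 0.189 in H456, beside 0.472, 0.280 and 0.298 for the NTC sgRNAs. Over all targeting sgRNAs it was 0.399, 0.297 and 0.313, in H17 also below that of the NTC sgRNAs. In H23, 3 of 100 sgRNAs lay above the 99th percentile of the NTC sgRNAs and 0 below the 1st, where 0.984% and 1.40% of all targeting sgRNAs of H23 did so. The 3 include the DDOST sgRNA that met the minimum of reads only through the top quartile library, so this count is no support for an effect. None of the 20 sgRNAs in H17 or the 55 in H456 lay outside.

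**Figure D3:**
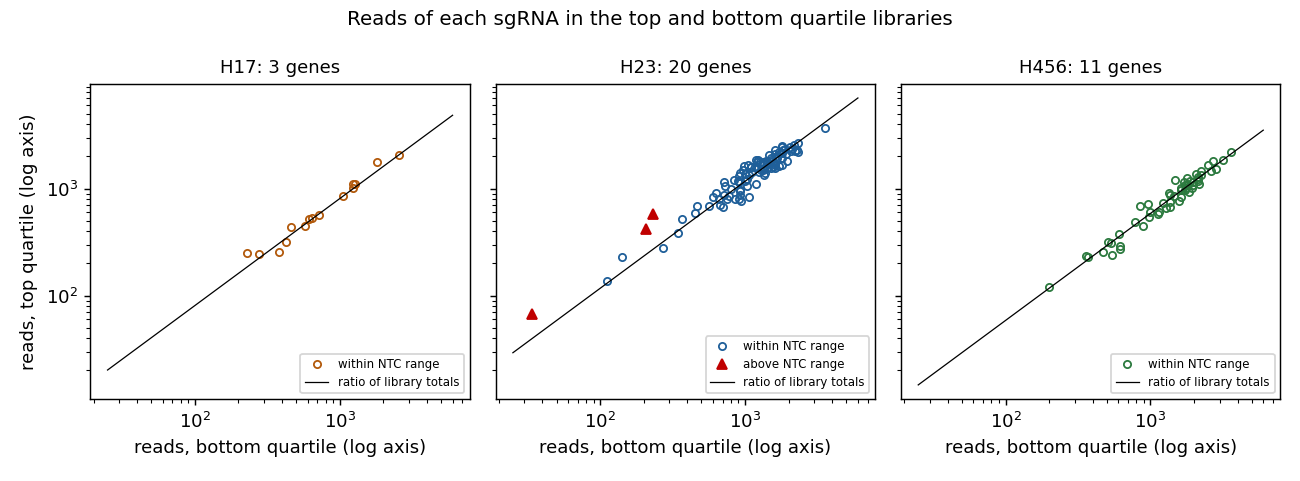
Reads of each sgRNA in the top quartile library (y axis, log) against the bottom quartile library (x axis, log), 1 panel per sublibrary. The line is the ratio of the library totals, and triangles mark the 3 sgRNAs above the NTC range, against STT3A (584 and 232 reads), TUSC3 (421 and 208) and DDOST (67 and 34).

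Abundance of an sgRNA, its reads in both quartiles relative to the median NTC sgRNA, was a separate readout. The median over sgRNAs of a gene had a median of 0.25 on the log2 scale over the 34 genes, from −1.20 (ALG10) to 0.81 (ALG5), beside 0.02 over all genes. Of 170 sgRNAs, 22 (12.9%) were at or under −1, beside 17197 of 101314 over all genes. Levels at transduction were not among the libraries, so uneven amounts in the starting pool and loss of cells during growth cannot be told apart. The lowest sgRNAs were against DDOST (−4.63), RPN1 (−3.30), RPN2 (−2.73), ALG10 (−2.58), OSTC (−2.14) and TUSC3 (−1.99).

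The 3 sgRNAs above the NTC range were all among those of low abundance. With a limit of −1, chosen after the values were seen, 9 of the 50 sgRNAs (18%) against the 10 OST subunits were at or below it. In H23 the share was 10.5% over all targeting sgRNAs (3430 of 32719). It was 2% (1 of 50) for the 10 other H23 genes of the list. The difference between these shares was not tested. Phenotypes of the 9 OST sgRNAs had a median of 0.31, with 7 positive and 2 negative. Among the 7 was the DDOST sgRNA that met the minimum of reads only through the top quartile library. For the 41 OST sgRNAs of higher abundance the median was 0.03, with 22 positive and 19 negative. All 3430 targeting sgRNAs of H23 at or under the limit had a median of −0.00539, and 49.5% were positive, with an SD of 0.521 beside 0.258 for the more abundant ones. The part of abundance in the high OST values was not tested.

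**Figure D4:**
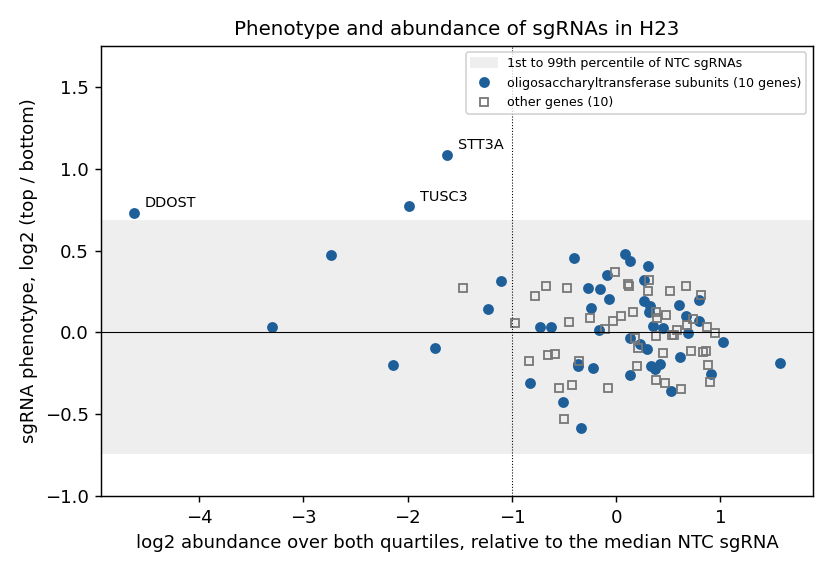
Phenotype (y axis, log2) against abundance over both quartiles (x axis, log2 relative to the median NTC sgRNA) for the sgRNAs of H23 against the 10 OST subunits (filled) and the 10 other genes (open squares). The dotted line is at −1 and grey spans the 1st to the 99th percentile of the NTC sgRNAs. The 9 OST sgRNAs to the left of the line have a median of 0.31. They include the DDOST sgRNA that met the minimum of reads only through the top quartile library.

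Another 46 genes of the pathway, from sugar donors to Golgi branching, had a median of 0.03, with 26 positive and 20 negative. Their SD over genes was 0.152, larger than the 0.0904 of the 34 genes, and 0 of 46 passed an adjusted exact p of 0.05. Unadjusted, 4 of 46 (8.70%) had an exact p under 0.05, beside 8.1% of all genes. B4GALT1, which adds galactose in the Golgi, was at 0.31 ± 0.14 (exact p = 0.00321, adjusted 0.230, n = 5). Its reads were 694, 992, 1303, 423 and 592 in the top and 757, 1076, 1333, 408 and 508 in the bottom quartile, and all 5 phenotypes were positive, from 0.19 to 0.53.

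UGGT1, the ER sensor that puts glucose back on glycans of unfolded proteins, was at −0.32 ± 0.21 (exact p = 0.00739, adjusted 0.340, n = 5). Its sgRNAs had 948, 1190, 1243, 1286 and 1387 reads in the top and 1203, 1366, 1296, 1200 and 1242 in the bottom quartile, and all 5 phenotypes were negative. DHDDS, a subunit of the enzyme that makes the dolichol chain, was at 0.26 ± 0.14 (exact p = 0.011, adjusted 0.387). MLEC, an ER lectin for glucosylated glycans that binds RPN1, was at 0.27 ± 0.22 (exact p = 0.0183, adjusted 0.468) at the start site with the lower p. Its unadjusted call was lost without the strongest sgRNA (0.17, exact p = 0.0851) and with both start sites pooled (0.12, exact p = 0.144), and at the other start site 3 of 5 sgRNAs were negative. None of these 4 genes held after adjustment over all genes. A phenotype of 0.3 or more was reached by 1 of the 46 (2.17%), B4GALT1, and one of −0.3 or less by 3 (6.52%), UGGT1, MAN1B1 and GMPPA. MAN1B1, a mannosidase that marks misfolded glycoproteins for disposal, was at −0.38 ± 0.75 (exact p = 0.290). GMPPA, a regulator of GDP-mannose synthesis, was at −0.30 ± 0.66 (exact p = 0.385). In both the SD was larger than the mean, with single sgRNAs as low as −1.72 and −1.45.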

How the data were processed

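The deposited values were raw counts of sequencing reads per sgRNA, not normalized, for 209070 sgRNAs of the genome-wide CRISPRi v2 library in 6 libraries. Per the labels, the authors ran 27 cycles of PCR on genomic DNA, without molecular identifiers, trimmed reads to 38 bp and counted them with ScreenProcessing (version 0.1). Counting SDs therefore cover counting error only. No source used here names the genome build behind the positions in sgRNA names, so these are not reported. The labels and the study's account of the screen give 8 days of knockdown, and its methods place the assay 6 days after transduction with a longer agonist time than the 90 min of the labels. Groups came from the sample titles, and the library names in the descriptions end in the opposite letter.

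The sublibrary with most of a gene's reads was taken as its own. An sgRNA was kept with at least 10% of its reads there and at least 50 reads in either quartile library, and 1 was added to both counts where one was 0. Of 350 listed sgRNAs against the 34 genes, 177 had reads, 175 were analysed and 170 lay at the start site used, 5 each for 32 genes. In the whole list, 104553 of 209070 sgRNAs had reads. The study counts 5 sgRNAs per gene and found all 5 for most genes, so rows without reads are not taken as sgRNAs lost from the screen. A gene needed at least 2 sgRNAs, and where it had several start sites the lower p decided. The sgRNAs of a gene were set against NTC sgRNAs (exact Mann-Whitney U test, two-sided), numbering 553, 570 and 739 in H17, H23 and H456, with Benjamini-Hochberg adjustment over 18905 genes. The study took the mean over sgRNAs and a Mann-Whitney P as well, and its threshold from resampled controls was not used here. With 1 library per quartile there are no residual degrees of freedom for a count model. The 34 genes, their subgroups and the 46 further genes were chosen with earlier results of these data known. Named were all 34 genes, with reads of every sgRNA for STT3A and STT3B, and the further genes with an unadjusted exact p under 0.05. One control gene that the rule also named is not reported here. Genes whose reads are given beside these (DPAGT1, ALG8, ALG11, DDOST, TUSC3 and GANAB), and TMEM258, OST4, MAN1B1 and GMPPA, were chosen after their values were seen. Python 3.11.15, numpy 2.4.6, pandas 2.3.3 and scipy 1.17.1 were used, the procedure was tested on simulated data, and 15 settings are compared in the closing section.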

Additional observations from a re-analysis of the deposited data

Results flagged for a closer look

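The ALG11 sgRNAs gave reads in libraries outside their own sublibrary. In H456 they had 5046 reads in the top quartile and 8331 in the bottom quartile, with a phenotype of 0.0498 ± 0.0709 (SD, n = 5 sgRNAs). Of the 175 sgRNAs against the 34 genes, 157 had more than 3 reads in the libraries of the other sublibraries, with a median of 11 and a maximum of 3552. In those libraries, 9 sgRNAs of 5 genes reached 50 reads, and 5 of the 9 were those of ALG11. The other 4 had far fewer reads there. An ALG8 sgRNA (0.27 in H456) was at −1.62 in H23 on 32 reads in the top and 83 in the bottom quartile. A KRTCAP2 sgRNA (0.26 in H23) was at −0.26 in H456 on 32 and 65 reads. An ALG1 sgRNA (0.06 in H456) was at 1.81 in H23 on 50 and 12 reads, and a DPM1 sgRNA (−0.07 in H456) at −0.58 in H17 on 125 and 232 reads.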

How the results depend on the processing

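Under 15 settings, no gene of the 34 had an adjusted or unadjusted p under 0.05, and the lowest p of each setting lay between 0.0670 and 0.111. Not every setting could change a p, because the test ranks single sgRNAs against the NTC sgRNAs. Moving only the zero point of the phenotype left all p-values as they were. The same held for replacing the mean by the median or by the mean of the 3 strongest sgRNAs. The median over the 34 genes stayed between 0.00394 and 0.06, and 17 to 21 genes were positive. Of 509 recomputed gene values, 482 kept their sign and 27, of 16 genes, changed it. The largest of these was 0.15 in size in the reported setting. The count of OST subunits with a positive mean ranged from 5 to 9. No paired analysis was possible because each quartile of a sublibrary has 1 library and the labels give no replicate numbers, and for the same reason no library could be left out.

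When the mean over sgRNAs was replaced by the median, signs changed for ALG1 (0.0636), DOLK (−0.00348), STT3A (−0.20), MAGT1 (−0.20), MOGS (−0.0183) and GANAB (0.0610). Without the strongest sgRNA they changed for ALG1 (0.0623), ALG9 (−0.0459), ALG10B (0.0228), ALG13 (−0.0711), DOLK (−0.00116), STT3A (−0.18), STT3B (−0.0266), RPN1 (−0.0106), OSTC (0.0132), TUSC3 (−0.00323), MAGT1 (−0.10), MOGS (−0.0392), GANAB (0.00903) and MAN2A1 (0.0560). Both start sites of MGAT1 pooled gave −0.000679. Thinning both libraries to the smaller total gave −0.00325 for DAD1 and −0.0102 for MAGT1. The sgRNAs against olfactory receptors, used as another comparison, numbered only 35 in H23 and 81 in H17, beside 1713 in H456. With sgRNAs against olfactory receptors as comparison, DAD1 was at −0.0207, MAGT1 at −0.0212, MOGS at −0.00690 and MGAT1, through its other start site, at −0.19, and 2 of the 46 further genes were negative at an unadjusted p under 0.05 in place of 1. The cause was not tested. Over all genes, 72 negative and 18 positive calls became 20 and 2 without the strongest sgRNA, 41 and 9 with the olfactory receptor comparison, and 0 and 0 with the normal approximation, whose p for 5 sgRNAs cannot fall as low. The sgRNAs listed under another gene left out removed ALG11.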
